A study of Mus musculus with 8 samples.

Results

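The ISG15 conjugation system was followed here through the 5 mouse genes that encode it, Isg15, Uba7, Ube2l6, Herc6 and Usp18, out of 52636 genes in the count table. The genes were chosen by name for their function, and all 5 were matched to an identifier and passed the filter on low counts. S0 cells were sorted from fetal livers at E12.5 (embryonic day), and 4 wild-type (WT) and 4 Vps13a/Vps13c double knockout (DKO) libraries were compared by RNAseq. S0 cells are the least mature erythroid subset of the sort. They lack both CD71, the transferrin receptor, and Ter119, and cells stained for other lineages were gated out.

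The labels give the controls only as wild type and the mutants only as DKO. The study's methods describe a C57BL/6J background, a Vps13a allele (tm1d) made by FLP and then β-actin-Cre recombination, a Vps13c-/- line, and DKO embryos from parents that were Vps13a+/- and Vps13c-/-. Such a cross gives no wild-type embryo, so litter and genotype cannot be told apart. Both genes are lost in all tissues, and the cells sorted were therefore not the only cells of the embryo that lacked them. No source used here says that each library came from a separate embryo, so p-values measure the spread between these samples.

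ISG15 is a ubiquitin-like protein that is attached to other proteins by a short enzyme chain. UBA7 is the E1 enzyme that activates ISG15, UBE2L6 is the E2 enzyme that carries it, and in mice HERC6 is the main E3 ligase that transfers it to substrates. USP18 removes ISG15 from substrates and, through a separate activity, binds the IFNAR2 subunit of the type I interferon receptor and dampens its signalling. Interferon raises transcription of this system through ISGF3, a complex that includes STAT2 and IRF9 and binds the interferon-stimulated response element (ISRE) of target promoters.

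The promoters are shown because ISGF3 acts on such sequence. RefSeq promoter windows of GRCm38.p6, each 300 bases from 250 before to 50 after the RefSeq gene start, were found for 4 of the 5 genes, all but Usp18. The bases before that start are printed 5′ to 3′ on the strand of the gene. Capitals mark matches of GAAANNGAA or of the shifted core AANNGAAAC, searched on both strands (reverse complements TTCNNTTTC and GTTTCNNTT). Both spell parts of the ISRE and can overlap each other. The windows shown are Isg15 at chr4:156200819-156201068 on the minus strand, and on the plus strand Uba7 at chr9:107975317-107975566, Ube2l6 at chr2:84798578-84798827 and Herc6 at chr6:57580742-57580991.
Isg15: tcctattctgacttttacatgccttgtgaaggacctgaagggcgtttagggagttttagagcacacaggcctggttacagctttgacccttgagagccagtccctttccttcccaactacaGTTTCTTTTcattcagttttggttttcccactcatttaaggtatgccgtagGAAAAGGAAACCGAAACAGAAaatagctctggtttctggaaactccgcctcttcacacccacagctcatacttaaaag
Uba7: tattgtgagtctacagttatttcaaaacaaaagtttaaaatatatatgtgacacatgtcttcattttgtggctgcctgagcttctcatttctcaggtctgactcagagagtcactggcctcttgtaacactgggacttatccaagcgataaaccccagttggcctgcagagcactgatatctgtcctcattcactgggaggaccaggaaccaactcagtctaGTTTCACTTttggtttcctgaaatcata
Ube2l6: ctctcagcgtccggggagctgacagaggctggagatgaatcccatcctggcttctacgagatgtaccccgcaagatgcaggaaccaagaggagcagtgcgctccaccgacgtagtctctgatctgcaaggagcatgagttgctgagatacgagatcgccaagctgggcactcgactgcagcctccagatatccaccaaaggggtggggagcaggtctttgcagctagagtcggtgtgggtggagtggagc
Herc6: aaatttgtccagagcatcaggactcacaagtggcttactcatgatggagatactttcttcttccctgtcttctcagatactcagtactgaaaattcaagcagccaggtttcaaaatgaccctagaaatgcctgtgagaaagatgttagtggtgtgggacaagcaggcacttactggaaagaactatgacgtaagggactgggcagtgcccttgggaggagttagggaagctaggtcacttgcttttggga

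In the Isg15 window, 3 matches of GAAANNGAA overlapped in a single run, beginning at bases -78, -72 and -66 from the RefSeq start. The shifted core matched at 3 places, 2 of them within the same run and a further match on the opposite strand that begins at base -129. The Uba7 window held no GAAANNGAA and a single reverse-strand match of the shifted core, which begins at base -28 from the RefSeq start. The gene as annotated by GENCODE begins upstream of that match, at 107975505, so the match lies within that annotation. Neither string was found in the windows of Ube2l6 or Herc6. Of 32851 windows in the reference, 8.56% held GAAANNGAA, 5.77% held AANNGAAAC and 12.8% held either. A match is a description of the letters only.

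Library totals were 42114489 to 50886469 counts in WT and 36981439 to 42587815 in DKO, and 17378 genes were tested. Values are given as normalized counts, counts scaled to the same effective library size. Vps13a was lower in DKO, at 607 to 1039 against 1825 to 2109 in WT (log2 fold change -1.29, edgeR adjusted p = 0.00247), whereas Vps13c was not called (0.49, adjusted p = 0.182), so its whole-gene count did not check the labels. The libraries did not match in sex-linked transcripts. Ddx3y, which is Y-linked, had 2911 to 3354 normalized counts in all 4 WT libraries and 2516 in DKO 3, but at most 41.0 in DKO 1, DKO 2 and DKO 4. The summed level of 10 erythroid markers was 1034 to 1239 CPM (counts scaled to a common library total) in WT and 847 to 1313 in DKO. Of these 10, Kit was called lower (mean 4066 normalized counts in mutants against 8763 in controls), and the other 9 were not called. The sum was higher for 8 hepatoblast markers, at 10135 to 14139 CPM in WT and 3458 to 12283 in DKO. For 9 neutrophil lineage markers it was 2312 to 3012 in WT and 121 to 1020 in DKO. Such sums depend on the genes listed and do not measure how pure the sorted cells were.

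The first question was whether the genes of the system changed together in DKO S0 cells. Of the 5 genes, 4 were higher in DKO (adjusted p under 0.05 and log2 fold change above 1) and none was lower. Over all genes tested, 6.19% were called higher and 2.43% lower. For the same 4 genes the lowest DKO value exceeded the highest WT value, which was so for 13.5% of all genes tested. Isg15, the modifier, was 37.9-fold higher, Usp18, the deconjugase, 5.20-fold, Ube2l6, the E2, 2.93-fold and Uba7, the E1, 2.24-fold. Herc6, the E3 ligase, was not called. In these bulk samples, more RNA per cell and more cells of an expressing type cannot be told apart.

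Isg15 (ENSMUSG00000035692.6) spans 156199424 to 156200818 of chromosome 4 in GRCm38, on the minus strand, and overlaps no other gene. Its normalized counts in WT replicates 1 to 4 were 138, 45.6, 59.1 and 74.3. In DKO replicates 1 to 4 they were 4965, 1944, 3166 and 1864. All DKO libraries were above all WT libraries, with DKO 1 highest among the mutants and WT 1 highest among the controls. The means were 79.3 ± 41.0 for WT and 2984 ± 1448 for DKO (SD, n = 4 per genotype). The log2 fold change was 5.24 (standard error 0.46, 95% confidence interval 4.22 to 6.26, edgeR adjusted p = 0.000346), which placed Isg15 at 27 among the genes higher in DKO when ordered by p. A two-sided exact permutation test of log2 CPM gave p = 0.0286, and the same for Uba7, Ube2l6 and Usp18. No smaller p can be had from 4 against 4. The WT values rested on 53 to 132 raw counts per library, fewer than for the other 4 genes.

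Uba7 (ENSMUSG00000032596.14) lies on the plus strand of chromosome 9 from 107975505 to 107984060. Normalized counts were 1671, 1453, 1223 and 1513 in WT 1 to 4 and 3849, 2319, 3378 and 3606 in DKO 1 to 4. The groups did not overlap, and DKO 2 was the lowest mutant library. The mean went from 1465 ± 186 to 3288 ± 674 (SD, n = 4 per genotype). On the log2 scale Uba7 was higher by 1.17 (standard error 0.16, edgeR adjusted p = 0.00303). Uba7 shares 233 exon bases with Gm20661 on the same strand. That gene averaged 16.9 normalized counts for WT and 31.1 for DKO and was not called (adjusted p = 0.506).

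Ube2l6 (ENSMUSG00000027078.14) lies on the plus strand of chromosome 2 from 84798828 to 84810335 and overlaps no other gene. The 4 WT libraries were close to each other, at 1206, 1232, 1134 and 1318 normalized counts. The DKO libraries were at 4354, 2318, 4006 and 3666. All mutants were again above all controls, and DKO 2 was again the lowest of them. The mean was 1223 ± 76.2 in controls and 3586 ± 891 in mutants (SD, n = 4 per genotype). Ube2l6 thus rose by 1.55 on the log2 scale (standard error 0.18, edgeR adjusted p = 0.00143).

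Herc6 (ENSMUSG00000029798.11) lies on the plus strand of chromosome 6 from 57581000 to 57664632. It had 550, 502, 457 and 619 normalized counts in WT 1 to 4 and 863, 534, 571 and 562 in DKO 1 to 4. The groups overlapped, since only DKO 1 was above all WT libraries. The means were 532 ± 69.3 and 632 ± 154 (SD, n = 4 per genotype). The log2 fold change was 0.25 (standard error 0.20, 95% confidence interval -0.19 to 0.69, edgeR adjusted p = 0.394, exact permutation test, two-sided, p = 0.286). The interval ends below the fold threshold, but a smaller difference in either direction could not be told from the spread between libraries. Herc6 shares 1269 exon bases with Gm45193 on the same strand, which had at most 3.50 normalized counts in any library.

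Usp18 (ENSMUSG00000030107.10) lies on the plus strand of chromosome 6 from 121245906 to 121270917. Normalized counts were 594, 361, 345 and 477 in WT 1 to 4 and 3581, 1798, 2072 and 1776 in DKO 1 to 4. The groups did not overlap, and DKO 1 stood well above the other mutants. The mean was 444 ± 116 in controls and 2307 ± 860 in mutants (SD, n = 4 per genotype), so that Usp18 rose by 2.38 on the log2 scale (standard error 0.27, edgeR adjusted p = 0.00143). Gm44148 shares 124 exon bases with Usp18 on the opposite strand. It had means of 7.82 and 11.9 normalized counts and was not called (adjusted p = 0.516).

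**Figure D1:**
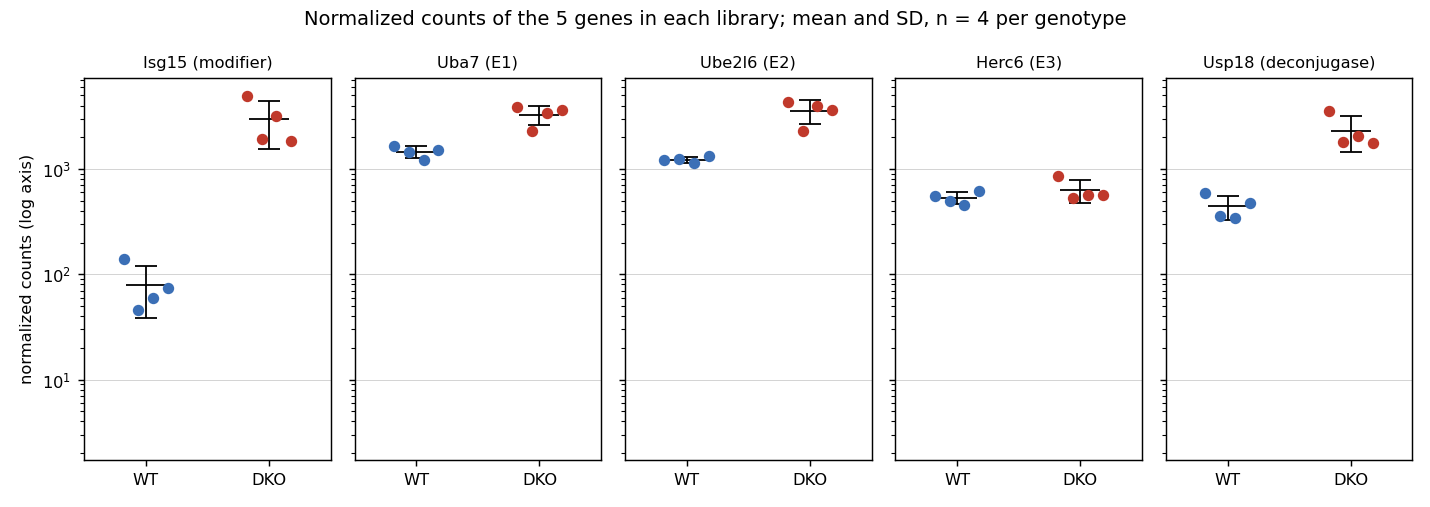
Normalized counts (log axis) of Isg15, Uba7, Ube2l6, Herc6 and Usp18 in each of 4 WT and 4 DKO libraries, with points for libraries and bars for the mean and SD. The groups are apart for all genes but Herc6, whose DKO libraries lie at 534 to 863 and WT libraries at 457 to 619.

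The libraries were ordered in a similar way across genes. DKO 1 was the highest mutant library for 5 of 5 genes, DKO 2 was the lowest for 3 and DKO 4 for 2. Among controls, WT 3 was the lowest for 4 genes. Relative to its WT mean on the log2 scale, with a pseudocount of 1 normalized count, Isg15 was at 6.08, 4.72, 5.43 and 4.66 in DKO 1 to 4. The same values for Uba7 were 1.40, 0.67, 1.21 and 1.31. The 4 called genes stayed called when any of the 8 libraries was left out. They also stayed called when DKO 3, the mutant library with Ddx3y, was set alone against the WT libraries, with log2 fold changes of 5.32 for Isg15, 1.19 for Uba7, 1.69 for Ube2l6 and 2.21 for Usp18 and of 0.09 for Herc6. That fit assumes that the lone library varies as the WT libraries do.

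**Figure D2:**
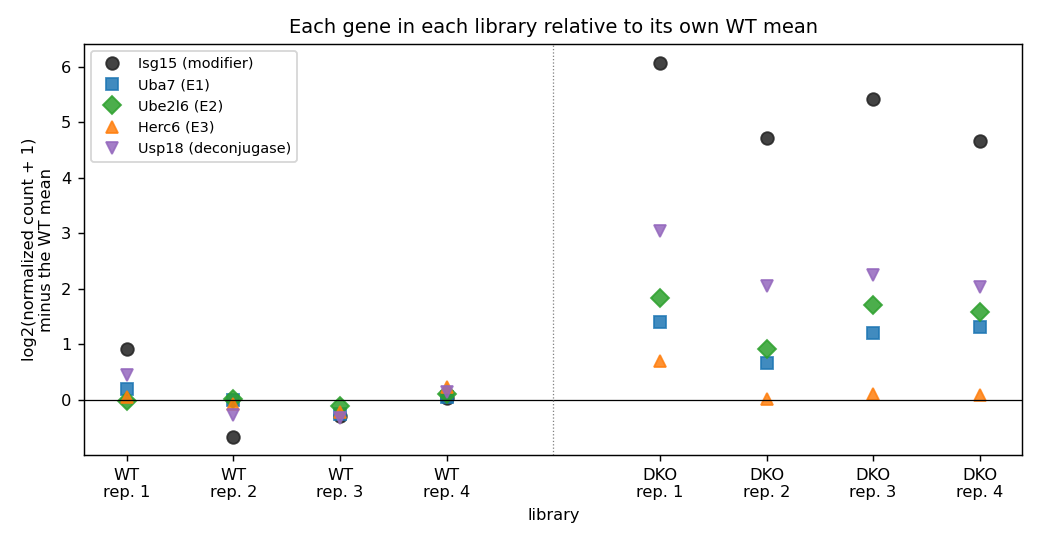
Each gene in each library as log2(normalized count + 1) minus its WT mean. Isg15 lies highest in all 4 DKO libraries (4.66 to 6.08), Usp18 is next, Uba7 and Ube2l6 lie close together, and Herc6 lies at 0.01 to 0.71.

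Ratios between the genes within a library were then compared, to ask whether they changed by the same amount. Of 10 pairs, 9 differed between WT and DKO (two-sided exact permutation test, p = 0.0286, Benjamini-Hochberg adjusted p = 0.0318 over the 10 pairs). The log2 ratio of Isg15 to each other gene was higher in DKO in 4 of 4 libraries. It differed by 4.08 against Uba7 (standard error 0.39), by 3.72 against Ube2l6 (0.42), by 5.0 against Herc6 (0.37) and by 2.89 against Usp18 (0.22). The modifier therefore increased more than its deconjugase, which in turn increased more than the E1, since the ratio of Uba7 to Usp18 was lower by a log2 difference of -1.20 (0.23). The ratio of Uba7 to Ube2l6, the E1 to the E2, differed least (-0.37, standard error 0.10). The exception was Ube2l6 to Usp18, where the difference was -0.83 (standard error 0.26), 3 of 4 DKO libraries were below all WT libraries, and p was 0.0571 in the exact permutation test.

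Levels were also compared per length, as CPM per kilobase of annotated exon. In WT the order was Ube2l6 (13.9 ± 0.870), Uba7 (4.99 ± 0.632), Usp18 (3.63 ± 0.946), Isg15 (2.39 ± 1.23) and Herc6 (1.3 ± 0.170). Ube2l6 was apart from the rest, whereas each later neighbour in this order overlapped the next in range. In DKO the order was Isg15 (89.9 ± 43.6), Ube2l6 (40.9 ± 10.2), Usp18 (18.8 ± 7.02), Uba7 (11.2 ± 2.29) and Herc6 (1.55 ± 0.378). There only Ube2l6 and Usp18 overlapped in range. Lengths of the longest coding transcript were also used, a choice made after the data were seen. Isg15 then came after Herc6 in WT (2.39 against 2.54), and the order of the means in DKO was the same. In DKO 4, however, Uba7 then exceeded Usp18 (16.0 against 14.2 percent of the summed level of the 5 genes), so these genes also overlapped in range. The DKO levels of Isg15 (89.9 ± 43.6) and Ube2l6 (52.3 ± 13.0) then overlapped in range too. Within each DKO library Isg15 still had the larger share.

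Of the summed level of the 5 genes per kilobase, Isg15 made up 14.0, 5.60, 7.80 and 8.04 percent in WT 1 to 4 and 61.4, 53.8, 55.8 and 44.5 percent in DKO 1 to 4. Ube2l6 had the largest share in each WT library, at 46.2 to 57.3 percent, and 20.4 to 33.2 percent in DKO. The share of Herc6 went from 4.97 to 0.995 percent. The share of Usp18 was 13.6 percent in WT and 11.7 percent in DKO, with overlapping groups. The shares depend on the lengths used. With the longest coding transcript, Isg15 made up 3.74 to 9.47 percent in WT and 34.9 to 51.4 percent in DKO, Ube2l6 made up 40.1 to 49.2 percent and 21.9 to 33.3 percent, and Usp18 made up 12.6 to 17.4 percent and 12.9 to 17.2 percent. Its mean share was then higher in DKO than in WT, the opposite direction, again with overlapping groups.

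**Figure D3:**
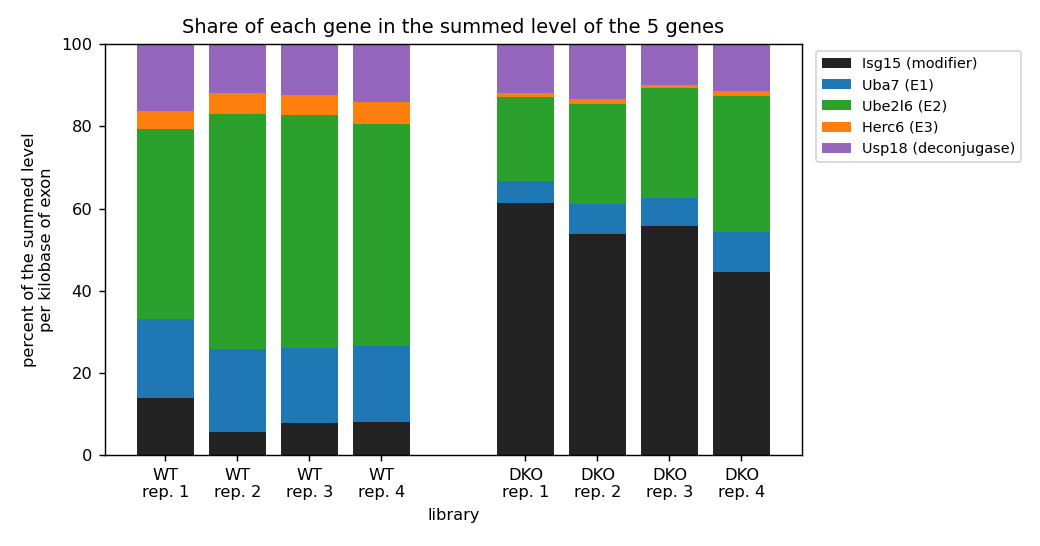
Percent of the summed level per kilobase of exon that each of the 5 genes took in each library, as stacked bars that add up to 100. The Isg15 part is at most 14.0 percent in the WT libraries and at least 44.5 percent in the DKO libraries.

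The paralogs of these genes in the ubiquitin system were examined next. The lists tested held 9 E1 enzymes of other modifiers, 35 other E2 enzymes and 4 other HERC ligases. They also held 49 genes listed under other ubiquitin-specific proteases (including Usp6nl, Uspl1 and Cyld) and 18 other ubiquitin-like modifiers. None of these genes was called in either direction. The median log2 fold changes of these lists were -0.26, -0.04, -0.14, -0.07 and 0.11, beside 0.03 over all genes tested. With no fold threshold, edgeR adjusted p was under 0.05 for 5 of the 9 E1 enzymes, all lower in DKO. By that rule 4 E2 enzymes were higher and 3 lower, and 4 modifiers were higher and 2 lower. Of the genes listed under proteases, 10 passed, all lower. Over all genes tested, 10.7% were higher and 10.8% lower by the same rule.

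Uba1 and Uba6, which activate ubiquitin, had log2 fold changes of -0.37 (adjusted p = 0.0182) and -0.58 (adjusted p = 0.00574). Ube2l3, the E2 nearest in sequence to Ube2l6, had 12414 to 13105 normalized counts in WT and 8995 to 11691 in DKO (-0.33, adjusted p = 0.0357). These 3 genes were lower in every DKO library than in any WT library, as were 14.6% of all genes tested, while Uba7 and Ube2l6 were higher in every one. Herc1 (0.22, adjusted p = 0.174), Herc2 (0.02, 0.895), Herc3 (-0.72, 0.113) and Herc4 (-0.29, 0.0824) were not called. The value of Herc2 changed sign under some settings. Arih1 and Trim25, ligases that have also been linked to ISG15, had log2 fold changes of -0.23 (adjusted p = 0.11) and 0.01 (adjusted p = 0.983), and Trim25 changed sign under some settings. Ubd, which encodes FAT10, another modifier induced by cytokines, was at 0 in all 8 libraries.

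**Figure D4:**
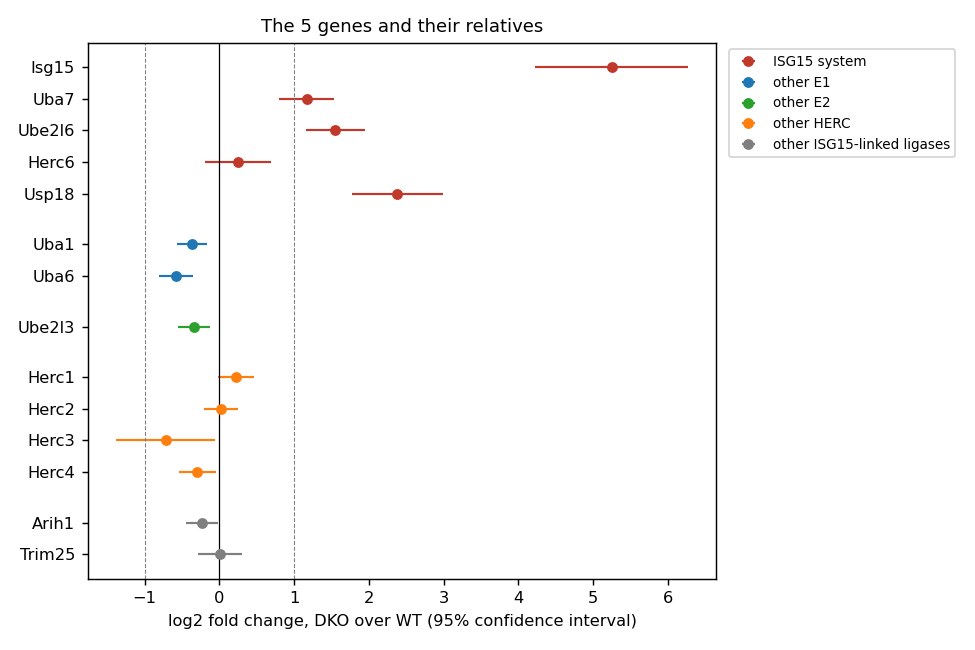
Log2 fold change of DKO over WT with its 95% confidence interval for the 5 genes and the relatives in the ubiquitin system that the text names with values. Dashed lines mark the fold threshold at -1 and 1; of the genes plotted, Isg15, Uba7, Ube2l6 and Usp18 lie beyond it, and Herc6 lies at 0.25 with an interval from -0.19 to 0.69.

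Proteins described as carrying ISG15 were examined at the RNA level. Of 19 tested, 2 were called higher, beside 6.19% of all genes tested, and none lower, with a median log2 fold change of 0.01. Both were sensors of double-stranded RNA. Ifih1, which encodes MDA5, had 460 to 650 normalized counts in WT and 1224 to 2154 in DKO (log2 fold change 1.68, adjusted p = 0.00143). Ddx58, which encodes RIG-I, had 174 to 415 in WT and 465 to 1250 in DKO (1.48, adjusted p = 0.0213), and it lost its call without WT 2, WT 3 or WT 4 (adjusted p = 0.0605, 0.0535 and 0.0707) and in the comparison limited to libraries with Ddx3y (log2 fold change 0.80, adjusted p = 0.228). Itgal and Itgb2, which encode LFA-1, the integrin named as receptor of secreted ISG15, had log2 fold changes of -0.78 (adjusted p = 0.034) and -0.61 (adjusted p = 0.0324) and did not pass the fold threshold.

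The pathway upstream of the system was followed from ligand to transcription factor. Of 21 interferon genes none had enough counts to be tested, and 16 were at 0 in all libraries. Ifnb1 was present only in DKO 3, at 17.1 normalized counts, and Ifna1 and Ifna2 only in DKO 2, at 4.65 and 2.32. Ifnk was present in both genotypes, at 6.08 to 9.47 in WT and 0 to 17.8 in DKO. Ifnz was present in WT 3 and in DKO 1. None of the 6 genes examined for the receptor, its kinases and ISGF3 was called. The 2 receptor subunits and both kinases were lower in every DKO library than in any WT library without passing the fold threshold, beside the 14.6% of all genes whose groups were separate in that direction. Log2 fold changes were -0.57 for Ifnar1, -0.52 for Ifnar2, -0.65 for Jak1 and -0.61 for Tyk2 (adjusted p = 0.0238, 0.0121, 0.00348 and 0.0221). Ifnar1 passed the threshold when only libraries with Ddx3y were used (-1.05, adjusted p = 0.00301).

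Of the genes for ISGF3, Irf9 had 1462, 919, 939 and 1102 normalized counts in WT 1 to 4 and 2461, 1873, 2106 and 2233 in DKO 1 to 4 (log2 fold change 0.97, adjusted p = 0.0052). The groups were apart, and WT 1 and DKO 1 were the highest of each. Stat2 was at 935 to 1100 in WT and 754 to 1069 in DKO (-0.14, adjusted p = 0.508). Irf9 lay just under the fold threshold and passed it under upper-quartile scaling (1.08), without WT 1 (1.14) or DKO 2 (1.03), and among protein-coding genes only (1.01).

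Among 7 other interferon regulatory factors, 1 was called higher and 2 lower, beside 6.19% and 2.43% of all genes tested. Their median log2 fold change was -0.73. For 5 of the 7 the groups were separate in the lower direction, beside 14.6% of all genes tested. These 5 included Irf2 (log2 fold change -0.68, adjusted p = 0.00523), which did not pass the fold threshold. Irf7, an amplifier of interferon transcription, had 404, 98.1, 122 and 150 normalized counts in WT 1 to 4 and 3815, 1021, 1610 and 1348 in DKO 1 to 4 (log2 fold change 3.34, adjusted p = 0.00531). As for Isg15, WT 1 and DKO 1 were the highest of their groups. Irf8, a factor of myeloid and dendritic cells, was lower (-1.79, adjusted p = 0.0251), as was Irf5 (-1.01, adjusted p = 0.0101). Irf8 lost its call without WT 1, WT 2, WT 4 or DKO 3 (adjusted p = 0.0624, 0.0667, 0.0655 and 0.0527), and Irf5 fell under the fold threshold without WT 4 or DKO 3 (-0.86 and -0.88), as well as under upper-quartile scaling (-0.90), with at least 10 counts in every library (-0.99) and among protein-coding genes only (-0.97). Irf3 had a log2 fold change of 0.01 (adjusted p = 0.97), whose sign changed under some settings.

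Of 8 other inhibitors of cytokine receptor signalling, 3 were called higher and none lower, beside 6.19% and 2.43% of all genes tested. Pias1 (log2 fold change -0.75, adjusted p = 0.00166), Ptpn6 (-0.67, 0.0187) and Ptpn1 (-0.21, 0.105) were lower with separate groups, without passing the fold threshold. In that direction the groups were separate for 14.6% of all genes tested. Socs3 had a log2 fold change of 1.55 (adjusted p = 0.00685), Socs1 of 1.42 (0.0179) and Socs2 of 1.02 (0.0138). Socs1 lost its call without WT 1, WT 2 or WT 4 (adjusted p = 0.0564, 0.0539 and 0.0551) and with only Ddx3y libraries (log2 fold change 0.73, adjusted p = 0.0946). Socs2 fell under the fold threshold without WT 2, WT 4, DKO 1 or DKO 3, at 0.88 to 0.99, and with no filter on low counts (0.998). Usp18, which shares the task of dampening the receptor, had the largest log2 fold change of the inhibitors plotted (2.38).

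**Figure D5:**
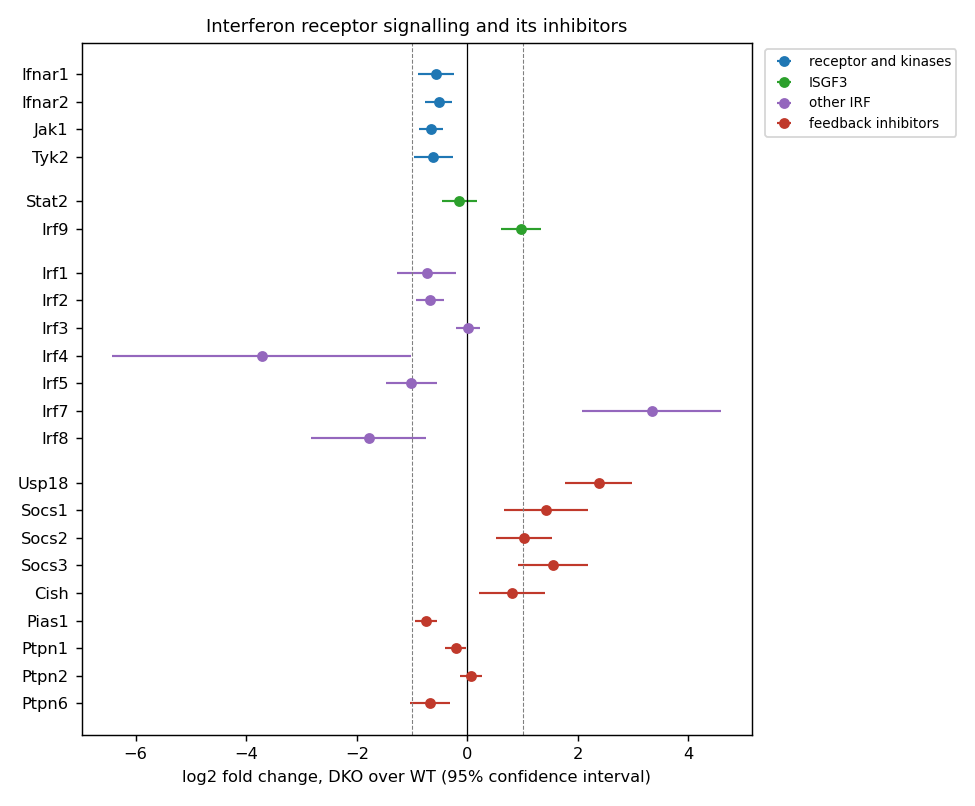
Log2 fold change of DKO over WT with its 95% confidence interval for genes of type I interferon receptor signalling, interferon regulatory factors and feedback inhibitors. Receptor subunits and kinases lie between -0.65 and -0.52, Irf9 lies at 0.97, Irf7 lies at 3.34 and Usp18 at 2.38.

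For comparison, 2 families of interferon stimulated genes were set beside the system. The 8 oligoadenylate synthetases are sensors that activate RNase L or relatives of them. Of these, 7 were called higher, beside 6.19% of all genes tested, and the median over the 8 was 3.49 on the log2 scale. Oas1a went from 170 to 252 normalized counts in WT to 1368 to 2667 in DKO (3.40, adjusted p = 0.000159). Oas1g, at 0 to 21.9 in WT and 305 to 688 in DKO, had a log2 fold change of 5.63 (adjusted p = 0.00355). Oas3 (4.75, adjusted p = 0.0301) lost its call without WT 2, WT 3, WT 4, DKO 1 or DKO 3 (adjusted p = 0.0508 to 0.0766), with no filter (0.0515) or with only Ddx3y libraries (0.0638). Of the IFIT family with Rsad2, 4 of 7 genes were tested and 2 called higher, beside the same 6.19% of all genes. These were Ifit1 (5.50, adjusted p = 0.000343) and Rsad2 (3.61, adjusted p = 0.000105). Ifit2 had a log2 fold change of -0.20 (adjusted p = 0.553), so that Herc6 was not alone among such genes in not being called. Ifit3 was not called either, but its log2 fold change was 2.79 (edgeR adjusted p = 0.0811). It had 0 to 27.8 normalized counts in WT and 34.5 to 108 in DKO. Either promoter string was found for 6 of 7 genes of the IFIT list and 5 of 6 synthetases that had a window. Of all windows in the reference, 12.8% held either string.

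The genes closest to Isg15 in profile were sought among 17244 tested genes with a mean of at least 10 normalized counts, by the mean absolute difference over 8 libraries of the log2 value relative to WT. Ifit1 was the closest, at 0.25. The next 4, Rnu3a, Kctd8, Ankrd45 and D430041D05Rik (0.37 to 0.52), were at or near 0 in WT and had means of 31.4 to 44.8 normalized counts in DKO. Their edgeR log2 fold changes were 6.97 to 8.14, beside 5.24 for Isg15. For these 4 genes the closeness therefore depends on the pseudocount of 1 in the log2 values. Closest to the mean profile of the 5 genes were Dsel (0.17), Hist1h3i (0.18), Lrrc75aos2 (0.19), Bst2 (0.19) and Rnf213 (0.20). Bst2, which encodes the antiviral protein tetherin, had 1932 to 2399 normalized counts in WT and 6510 to 14553 in DKO. Rnf213, a large ubiquitin ligase described as binding ISG15, had 749 to 1337 and 3576 to 7187. Within the system, Uba7 and Ube2l6 were the closest pair, at 0.24. Likeness was chosen on these samples and is a description.

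Markers of other cell types moved with genotype as well. The summed level of 10 macrophage markers was 56.1 to 78.4 CPM in WT and 19.9 to 39.4 in DKO, and 1 of them was called lower. For 9 neutrophil lineage markers it was 2312 to 3012 and 121 to 1020, with 3 called lower and Ly6g at 0 in all libraries. For 8 lymphoid and plasmacytoid dendritic markers it was 49.0 to 75.8 and 2.39 to 19.6, with 2 called lower, Ncr1 at 0 in all libraries and Siglech at 0 in all DKO libraries. The 6 mesenchymal markers went the other way, from 45.1 to 125 CPM in WT to 277 to 933 in DKO, with 5 called higher. Their sum was highest in DKO 1, the library with the highest values of all 5 genes, and lowest in DKO 2. Their part in the values of Isg15, Uba7, Ube2l6 and Usp18 was not tested.

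Other lists and RNA classes were also examined. The 6 endothelial markers summed to 60.4 to 79.2 CPM in WT and 36.9 to 45.2 in DKO, with 1 called lower. The 8 hepatoblast markers (10135 to 14139 in WT and 3458 to 12283 in DKO) and 6 megakaryocyte markers (1081 to 1230 and 829 to 2543) had no called gene. Mitochondrial mRNA took 1.12 to 1.16 percent of counts in WT and 1.62 to 1.90 percent in DKO. Replication-dependent histone RNA took 0.0478 to 0.0526 percent and 0.102 to 0.117 percent. The part of these differences in the results for the 5 genes was not tested.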

How the data were processed

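RNAseq of sorted S0 cells was analysed for 4 WT and 4 DKO libraries, grouped and numbered by the sample labels. According to the study's methods and the submitters' processing notes, the authors trimmed reads with fastp 0.21.0, mapped them to mm10 (GRCm38) with HISAT2 2.2.1, removed alignments of low quality and counted with StringTie 1.3.3b. The deposited values are whole-number counts per gene, not normalized and not pooled. The strand of counting is not given in the sources used here, so counts of overlapping genes are uncertain. Symbols, positions and exon lengths came from GENCODE vM21, in which 52489 of 52636 identifiers were matched without their version, and promoter sequences from RefSeq (GRCm38.p6).

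Counts were filtered with filterByExpr, scaled by TMM and compared with the robust quasi-likelihood test of edgeR 4.0.16 in R 4.3.3, with Benjamini-Hochberg adjustment over all 17378 genes tested. Calls required an adjusted p under 0.05 together with an absolute log2 fold change above 1. Normalized counts are counts over effective library size, times the mean effective library size. Ratios within a library used a pseudocount of 0.5 normalized counts. At these totals the spread between libraries, rather than counting error, limited precision. Libraries of a group differed by more than sampling noise, and the lowest chi-square per gene between any pair was 18.1. The steps were tested on simulated data.

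The genes, the lists and the tests were chosen with earlier results of these data known. The rule for named genes took the 5 genes, their nearest relatives (Uba1, Uba6, Ube2l3, Herc1 to Herc4 and Ubd), at most 8 called genes per list, Vps13a and Vps13c, and the 5 nearest genes to Isg15 and to the mean profile. Other uncalled genes of the lists were named after their values were seen. Results were recomputed with DESeq2 1.42.0, with median-of-ratios size factors, plain library size or upper-quartile scaling in place of TMM, and with no filter, at least 10 counts in every library, each library left out, a block for replicate number, protein-coding genes only, only libraries with over 100 normalized counts of Ddx3y, no fold threshold, a pseudocount of 5 and a shifted motif. A gene of the signalling lists is not reported here. Lengths of the longest coding transcript were added after the data were seen.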

Additional observations from a re-analysis of the deposited data

Results flagged for a closer look

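Within a group of 4 libraries, a value was examined for a gap to its nearest neighbour that was large for the range of the group. Of 10 groups, each gene in each genotype, 2 stood out, and both were in DKO 1. Herc6 was at 863 normalized counts in DKO 1 and at 534 to 571 in the other 3 mutants, with a gap of 0.885 of the range. Usp18 was at 3581 in DKO 1 and at 1776 to 2072 in the others, with a gap of 0.836 of the range. Both gaps were above Dixon's 95% critical value for 4 samples, which chance alone passes in about 1 in 20 groups. Without DKO 1 the log2 fold change was 0.07 for Herc6 (edgeR adjusted p = 0.796) and 2.09 for Usp18, which was still called.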

How the results depend on the processing

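Isg15, Uba7, Ube2l6 and Usp18 were called higher, and Herc6 was not, under all 18 alternatives. Leaving out each library gave log2 fold changes of 4.89 to 5.64 for Isg15, 1.08 to 1.3 for Uba7, 1.45 to 1.71 for Ube2l6, 0.07 to 0.32 for Herc6 and 2.09 to 2.55 for Usp18. Over all alternatives the adjusted p of the 4 called genes was at most 0.0168, and that of Herc6 was 0.213 to 0.817. The log2 ratio of Ube2l6 to Herc6 differed by 1.60 with only libraries that hold Ddx3y, and the number of promoter windows with a match went from 1 to 2 of 4 with the shifted core, which by its construction is another string.

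With a replicate block, log2 fold changes were 5.23 for Isg15 (edgeR adjusted p = 0.000871), 1.15 for Uba7 (0.0168), 1.52 for Ube2l6 (0.014), 0.23 for Herc6 (0.467) and 2.35 for Usp18 (0.00272). The block changed no call of the 5 genes. Libraries with the same number did not deviate together (correlations -0.0893 to 0.0433), and 1 of 8 correlated best with its own number, so the numbers were not treated as pairing.

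Over all genes, 1076 were called higher and 423 lower, against 613 and 343 with the block, 1370 and 517 with DESeq2, 566 to 1148 and 243 to 521 with a library left out, 590 and 1143 with only libraries that hold Ddx3y, and 1867 and 1878 with no fold threshold. Upper-quartile scaling moved the median of all genes from 0.03 to 0.14 and gave 1228 and 325, and no filter moved it to 0.13. Of 792 counts of called genes in the lists, 728 were within 1.5 times the reported count and 64 were not. Many of the reported counts were 0, for which this bound means only that the count stayed at 0. Of the genes listed under other ubiquitin-specific proteases, 2 were called higher with DESeq2, with at least 10 counts in every library and without DKO 3. Of the other ubiquitin-like modifiers, 1 was called higher with upper-quartile scaling and without DKO 3, and 1 of the E1 enzymes was called higher without WT 3. Among genes near 0, Herc2 changed sign with no filter (-0.00162) and with only Ddx3y libraries (-0.0208), and ranged from -0.0128 to 0.0802 with a library left out. Trim25 did so with no filter (-0.0189) and with the block (-0.00218) and ranged from -0.0470 to 0.113, and Irf3 did so with no filter (-0.0182) and ranged from -0.0698 to 0.0605. Vps13c had a log2 fold change of -0.19 with only Ddx3y libraries. The cause of these changes was not tested. The interferon genes had too few counts to be tested.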
